A study of Homo sapiens with 2 samples.

Results

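The genes of glycolysis and of the pentose phosphate pathway were described in single-cell transcriptomes of WaGa cells, an established human Merkel cell carcinoma line. The 31 genes were taken by name, from glucose uptake to lactate export, among 32742 genes in the table. Of these, 29 had at least 50 unique molecular identifiers (UMIs, counts of single captured transcripts) over both libraries, as had 13956 genes in all. SLC2A3 and PFKFB3, with 23 UMIs each, fell short of that minimum, and HK2, with 64 UMIs, was the member nearest above it. There were 2 samples, WaGa cells treated with the HDAC inhibitor domatinostat and WaGa cells with no treatment. Domatinostat inhibits class I HDACs, which strip acetyl marks from histone tails. Neither dose nor duration is in the labels, which also do not say whether the control cells received the solvent DMSO. Both samples were the same line grown in suspension in RPMI medium, and they were profiled with droplet chemistry that counts the 3′ ends of transcripts.

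Each group had 1 library, so the conditions could not be tested against replicate spread, and every interval printed here covers counting error only. Levels are UMIs per 1000000 UMIs of a library (CPM), and ratios are the level in the library labelled treated over that in the library labelled untreated. Depth was 60160108 UMIs over 6679 cells (median 8578 per cell) in the library labelled treated, and 45562976 UMIs over 4137 cells (median 11125) in the library labelled untreated. All 9 Merkel cell carcinoma markers checked were measured in both libraries, among them KRT20 at 248 CPM in the library labelled treated and 295 CPM in the library labelled untreated. Of these markers, 7 had a ratio above 1, with SOX2 highest at 1.57, and 2 had a ratio below 1, KRT20 among them. CDKN1A, which inhibitors of this class are known to induce, stood at 39.4 CPM in the library labelled treated and 97.9 CPM in the library labelled untreated. Every direction given here rests on the treatment word that each cell name carries, and an exchange of these words between the libraries cannot be told from the files. With exchanged words each ratio would become its reciprocal, and what is given as lowest or lower would be highest or higher. The libraries are called by their labels throughout. Marker sets of other cell types were mostly scarce, and several were lower in the library labelled treated, as were the weakly expressed members. Their summed levels there were 0 CPM for T cell markers (4 of 4 at 0), 0.366 for melanocyte, 0.665 for erythroid, 0.731 for myeloid, 1.23 for B cell, 6.60 for endothelial, 18.0 for fibroblast and 316 for keratinocyte markers. In the library labelled untreated they were 0.0878 CPM for T cell (2 of 4 at 0), 3.12 for melanocyte, 1.95 for erythroid, 1.54 for myeloid, 4.26 for B cell, 6.56 for endothelial, 29.3 for fibroblast and 315 for keratinocyte markers. KRT10 alone gave most of the keratinocyte sum, with 313 CPM labelled treated and 311 CPM labelled untreated. DCN gave most of the fibroblast sum, with 16.7 CPM labelled treated and 25.2 CPM labelled untreated. The part of these marker sets in the results was not tested.

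Glycolysis splits glucose into pyruvate in the cytosol, with an investment of ATP in the upper steps and a yield of ATP and NADH in the lower ones. Pyruvate then enters the mitochondria through pyruvate dehydrogenase or is reduced to lactate, which leaves the cell through monocarboxylate transporters. The pentose phosphate pathway branches from glucose phosphate and supplies NADPH and ribose for nucleotides. Many tumours take up much glucose and export lactate even in oxygen, and many of these genes are known targets of MYC proteins and of the hypoxia-inducible factors.

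The sequences upstream of 4 genes are shown because these genes include the member that differed most (SLC16A3), the strongly expressed member that differed most (LDHA) and their partner and neighbour in the pathway (LDHB and PGK1). Each window holds the 250 bases upstream of a RefSeq transcript start in GRCh38.p14, read 5′ to 3′ on the strand of the gene. Capitals mark ACGTG, the core of the hypoxia response element, in either orientation (ACGTG or CACGT); the E-box CACGTG, which MYC proteins recognise, contains both. LDHA has 2 annotated starts and is shown at the first, chr11:18394313-18394562 on the plus strand. LDHB lies at chr12:21657843-21658092 on the minus strand. SLC16A3 has 5 annotated starts and is shown at chr17:82228792-82229041 on the plus strand. PGK1 lies at chrX:78103998-78104247 on the plus strand.
LDHA: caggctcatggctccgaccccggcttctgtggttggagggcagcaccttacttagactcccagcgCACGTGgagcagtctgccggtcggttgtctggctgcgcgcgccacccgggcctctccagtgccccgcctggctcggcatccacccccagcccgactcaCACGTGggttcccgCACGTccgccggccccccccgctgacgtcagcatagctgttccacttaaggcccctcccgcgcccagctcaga
LDHB: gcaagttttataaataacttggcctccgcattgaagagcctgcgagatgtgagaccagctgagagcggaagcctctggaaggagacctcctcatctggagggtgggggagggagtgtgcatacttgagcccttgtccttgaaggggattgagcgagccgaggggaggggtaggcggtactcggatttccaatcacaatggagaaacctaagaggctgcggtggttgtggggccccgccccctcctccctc
SLC16A3: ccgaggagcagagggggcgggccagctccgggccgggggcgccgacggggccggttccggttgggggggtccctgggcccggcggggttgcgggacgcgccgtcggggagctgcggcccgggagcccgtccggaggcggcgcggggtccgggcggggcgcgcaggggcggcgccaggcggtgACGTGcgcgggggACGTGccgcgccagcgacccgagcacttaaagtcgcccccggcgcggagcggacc
PGK1: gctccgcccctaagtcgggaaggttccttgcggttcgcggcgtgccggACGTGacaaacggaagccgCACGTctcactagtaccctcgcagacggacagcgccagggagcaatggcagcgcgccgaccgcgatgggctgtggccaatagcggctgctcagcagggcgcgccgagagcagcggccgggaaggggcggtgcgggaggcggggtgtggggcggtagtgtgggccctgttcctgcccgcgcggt
The LDHA window held 5 matches in 3 stretches, the window at its other start 0, the SLC16A3 window 2, the PGK1 window 2 and the LDHB window 0. The windows at the remaining SLC16A3 starts held 0. Of 35116 RefSeq windows of this length, 18.5% held ACGTG in either orientation, against 20 of the 54 windows (37.0%) of the 28 members that could be matched. CACGTG stood in 7 of the 54 member windows (13.0%) and in 6.34% of all windows. These matches describe letters only. They did not stand only upstream of lower members: the PDHB window held 3 (ratio 1.20), and the TKT window held 0 (ratio 0.803). A link between matches and ratios was not tested.

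As a group, the 31 genes made up 0.994% of the UMIs in the library labelled treated (9939 CPM) and 1.04% in the library labelled untreated (10436 CPM), a ratio of 0.952 with a 95% exact interval of 0.949 to 0.956. This ratio pools cells of all cell cycle phases, whose mix differed between the libraries. The part of that mix in the ratio was not tested. Of the 29 measured members, 7 had a ratio above 1 and 22 a ratio below 1, and among all measured genes 52.6% had a ratio below 1. Their median log2 ratio was -0.14, beside -0.02 over all measured genes. At least 1.5-fold lower were 3 members (HK2, PFKM and SLC16A3), among all measured genes 14.9%. The members at least 1.5-fold higher numbered 0, among all measured genes 3.75%. The count of lower members was therefore near the background, and the 3 genes were weakly expressed. LDHA, at 1.48-fold lower, was the member nearest outside that threshold.

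Weakly expressed genes were lower in the library labelled treated more often than others, so the members were also read within classes of level. Of the 14 members at 100 CPM or more on average, 11 had a ratio below 1, where 47.8% of the 1545 genes of that class did, and their median log2 ratio was -0.13 beside 0.01. In this class 0 members were at least 1.5-fold lower, against 2.07% of the genes, and 0 at least 1.5-fold higher, against 1.17%. Of the 9 members between 10 and 100 CPM, 6 had a ratio below 1, where 44.1% of the genes did, and 0 were at least 1.5-fold lower, against 5.15%, and 0 higher, against 1.97%. Of the 6 members under 10 CPM, 5 had a ratio below 1, where 61.9% of the genes did, and 3 were at least 1.5-fold lower, against 27.3%, and 0 higher, against 6.08%. The share of members below 1 was above that of the genes in each class, and outside the weakest class the differences were mostly small.

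**Figure D1:**
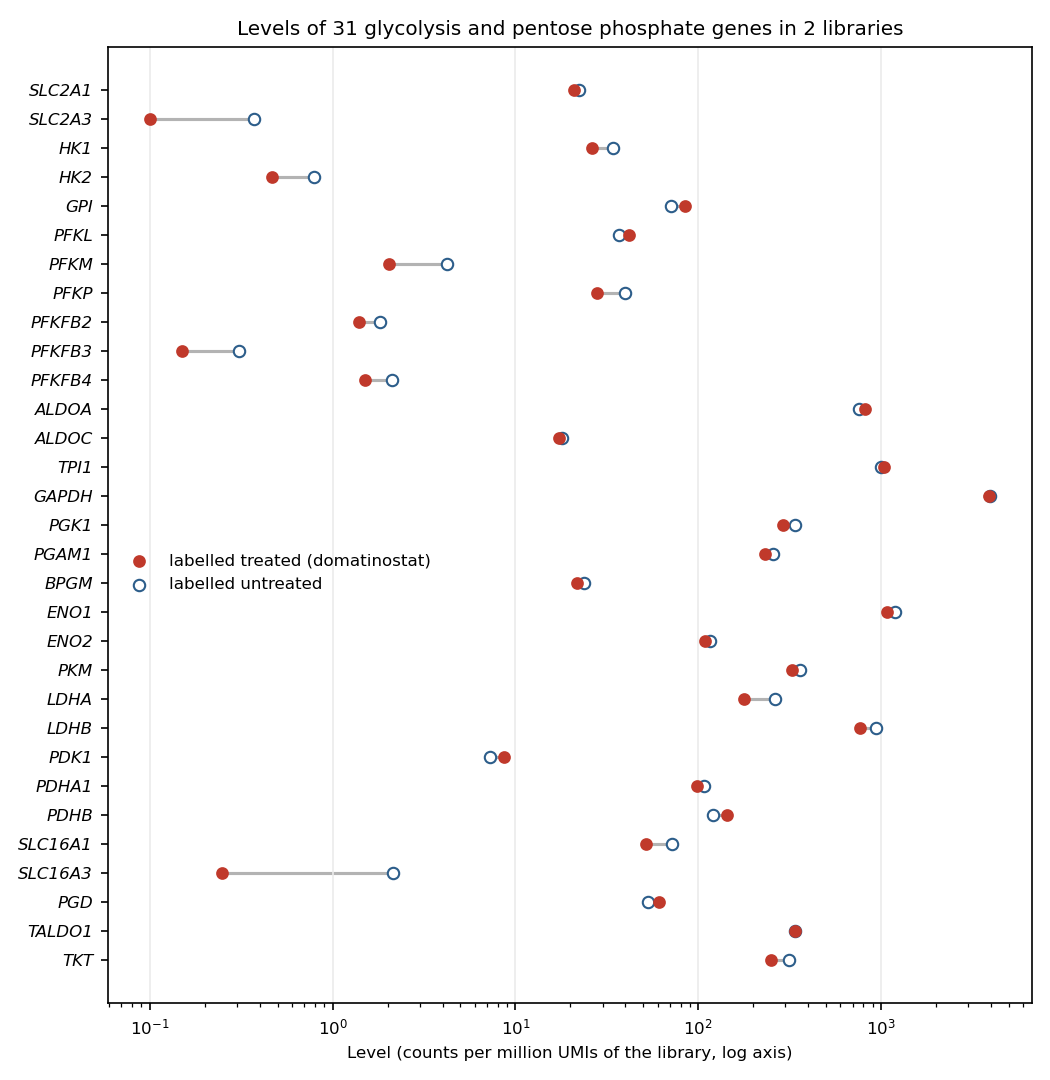
Level of each of the 31 genes in UMIs per 1000000 UMIs (CPM, log axis), in pathway order, with filled circles for the library labelled treated and open circles for the library labelled untreated. Levels span from 0.0997 CPM for SLC2A3 to 3899.5 CPM for GAPDH in the library labelled treated, and from 0.307 CPM for PFKFB3 to 3944 CPM for GAPDH in the library labelled untreated, and the widest gap is that of SLC16A3.

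Glucose enters the cell through facilitative transporters. SLC2A1, which encodes the common transporter GLUT1, had 1266 UMIs (21.0 CPM) in the library labelled treated and 1010 UMIs (22.2 CPM) in the library labelled untreated, a ratio of 0.949 (0.873 to 1.03). That interval holds 1. SLC2A3, which encodes the high-affinity neuronal transporter GLUT3, had 6 UMIs in the library labelled treated and 17 in the library labelled untreated. Of the UMIs of this pair, SLC2A1 therefore held 99.5% in the library labelled treated and 98.3% in the library labelled untreated.

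Hexokinase traps glucose by phosphorylating it. HK1, the housekeeping form, had 26.4 CPM in the library labelled treated and 34.4 CPM in the library labelled untreated, a ratio of 0.767 (0.714 to 0.8225). Of the 6043 genes in its class of level, 10.6% had a ratio as low or lower. HK2, the inducible form common in glycolytic tumours, was near the detection limit, with 28 UMIs (0.465 CPM) in the library labelled treated and 36 UMIs (0.790 CPM) in the library labelled untreated. Its ratio of 0.589 had an interval of 0.346 to 0.993. The HK1 share of the UMIs of HK1 and HK2 was 98.3% in the library labelled treated and 97.8% in the library labelled untreated. GPI, the isomerase that turns glucose phosphate into fructose phosphate, was the upper-pathway enzyme with the highest ratio, at 84.5 CPM in the library labelled treated against 71.1 CPM in the library labelled untreated (ratio 1.19, interval 1.14 to 1.24).

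Phosphofructokinase catalyses the committed step and is built from liver (PFKL), muscle (PFKM) and platelet (PFKP) subunits. The subunits stood on both sides of 1. PFKL had 2501 UMIs (41.6 CPM) in the library labelled treated and 1676 UMIs (36.8 CPM) in the library labelled untreated, a ratio of 1.13 (1.06 to 1.20). In cells called S, PFKL had 46.5 CPM (44.0 to 49.2) labelled treated and 45.6 CPM (42.9 to 48.3) labelled untreated. In cells called G2/M it had 38.3 CPM (36.1 to 40.5) labelled treated and 27.6 CPM (25.2 to 30.2) labelled untreated. PFKP had 1680 UMIs (27.9 CPM) in the library labelled treated and 1803 UMIs (39.6 CPM) in the library labelled untreated, a ratio of 0.706 (0.660 to 0.755). PFKM had 122 UMIs (2.03 CPM) in the library labelled treated and 193 UMIs (4.24 CPM) in the library labelled untreated, a ratio of 0.479 (0.378 to 0.604), or 2.09-fold lower. Although PFKM was past the 1.5-fold threshold, 14.3% of the 6368 genes under 10 CPM had a ratio as low or lower, and 6.88% of the genes between 10 and 100 CPM lay at or below PFKP.

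The make-up of the phosphofructokinase transcripts does not depend on the scaling between libraries. PFKL made up 58.1% of them (56.6 to 59.6) in the library labelled treated and 45.6% (44.0 to 47.3) in the library labelled untreated. PFKP made up 39.0% in the library labelled treated and 49.1% in the library labelled untreated, and PFKM 2.84% in the library labelled treated and 5.26% in the library labelled untreated. Over all cells, PFKL was thus the leading subunit transcript in the library labelled treated and PFKP in the library labelled untreated. This order did not hold in every subset. In cells labelled untreated, PFKL led in those called S (1115 UMIs against 1087 for PFKP) and in quartile 3 of UMIs per cell (562 against 555). Among cells labelled treated and called G1, both had 36 UMIs. The difference in PFKL share, 12.5 percentage points over all cells, was between 8.04 points in cells called S and 19.2 points in cells called G2/M. Every cell subset tried gave the same direction of this difference. Summed over the subunits the step had 71.5 CPM in the library labelled treated and 80.6 CPM in the library labelled untreated, a ratio of 0.888 (0.849 to 0.928).

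The PFKFB enzymes make and break the allosteric activator of phosphofructokinase. Their transcripts were rare, with 3.04 CPM summed over PFKFB2, PFKFB3 and PFKFB4 in the library labelled treated and 4.24 CPM in the library labelled untreated. PFKFB4, a hypoxia-inducible form, had 90 UMIs in the library labelled treated and 96 in the library labelled untreated, a ratio of 0.710 (0.527 to 0.957). PFKFB2 had 84 UMIs in the library labelled treated and 83 in the library labelled untreated, with a ratio of 0.766 and an interval that holds 1 (0.559 to 1.05). PFKFB3 had 9 UMIs in the library labelled treated and 14 in the library labelled untreated, too few for a ratio.

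Aldolase and triosephosphate isomerase form the triose phosphates, and their main transcripts were slightly higher in the library labelled treated. ALDOA, the ubiquitous aldolase, had 821 CPM in the library labelled treated and 757 CPM in the library labelled untreated, a ratio of 1.08 (1.07 to 1.10). TPI1 had 1038.5 CPM in the library labelled treated and 1003 CPM in the library labelled untreated, a ratio of 1.04 (1.02 to 1.05). ALDOC, the brain aldolase, took 2.06% of the UMIs of ALDOA and ALDOC in the library labelled treated and 2.32% in the library labelled untreated, and its ratio of 0.960 had an interval that holds 1 (0.875 to 1.05).

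**Figure D2:**
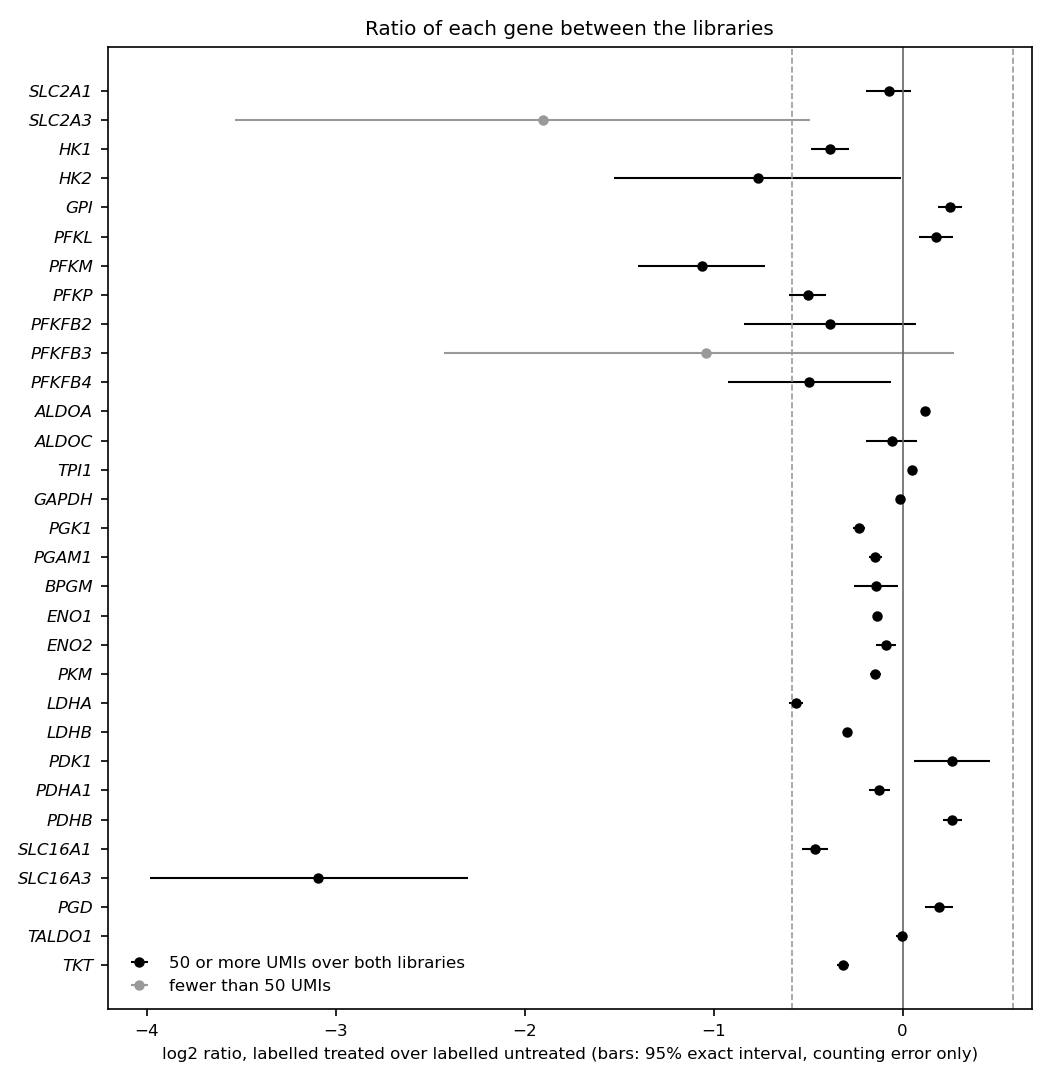
Log2 ratio of each gene, library labelled treated over library labelled untreated, with 95% exact intervals for counting error (grey for the 2 genes with fewer than 50 UMIs, dashed lines at 1.5-fold either way). Of the 29 measured genes, 7 lie above 0, SLC16A3 lies lowest at -3.09, and LDHA lies at -0.56.

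The lower part of glycolysis, which yields ATP and NADH, was mostly a little lower in the library labelled treated. GAPDH, which makes NADH and is often used as a reference gene, was the most abundant member, with 3899.5 CPM in the library labelled treated and 3944 CPM in the library labelled untreated. Its ratio was 0.989 (0.983 to 0.995), and the sign of its log2 ratio turned when the libraries were scaled by the median ratio over genes (0.01), so no direction is given. PGK1, which makes the first ATP of the pathway, had 289.7 CPM in the library labelled treated and 340.5 CPM in the library labelled untreated. That is a ratio of 0.851 (0.833 to 0.869), and 12.4% of the 1545 genes at 100 CPM or more had a ratio as low or lower. In cells called G1, S and G2/M, PGK1 had 361, 341 and 246 CPM labelled treated. Cells labelled untreated had 390, 346 and 326 CPM. The intervals overlapped in G1 and in S (334 to 348 and 339 to 353). They were apart in G2/M (241 to 252 and 318 to 335).

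The next steps lay within a narrow band below 1. PGAM1, the phosphoglycerate mutase, had 231 CPM in the library labelled treated and 256 CPM in the library labelled untreated, a ratio of 0.905 (0.883 to 0.927). BPGM, which makes bisphosphoglycerate and also has mutase activity, had a ratio of 0.907 (0.836 to 0.984). ENO1, the ubiquitous enolase, had 1079 CPM in the library labelled treated and 1186 CPM in the library labelled untreated, a ratio of 0.910 (0.900 to 0.920). ENO2, the neuron-specific enolase used as a neuroendocrine tumour marker, had 109 CPM in the library labelled treated and 116 CPM in the library labelled untreated, a ratio of 0.939 (0.906 to 0.974). Its share of the UMIs of ENO1 and ENO2 differed little, with 9.17% (8.96 to 9.38) in the library labelled treated and 8.91% (8.68 to 9.14) in the library labelled untreated. PKM, the pyruvate kinase gene of most tissues, had 324 CPM in the library labelled treated and 358 CPM in the library labelled untreated, a ratio of 0.905 (0.886 to 0.924). Counts at the 3′ end do not separate its splice forms.

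Every member measured for lactate dehydrogenase and lactate transport had a ratio below 1. LDHA, which encodes the subunit that favours making lactate, had 10664 UMIs (177 CPM) in the library labelled treated and 11946 UMIs (262 CPM) in the library labelled untreated. Its ratio was 0.676 (0.659 to 0.694), and 35 of the 1545 genes at 100 CPM or more (2.27%) had a ratio as low or lower. LDHB, which encodes the subunit of oxidative tissues, was the more abundant, with 771 CPM in the library labelled treated and 944 CPM in the library labelled untreated. Its ratio was 0.817 (0.806 to 0.828), with 7.96% of that class as low or lower. The LDHA share of the UMIs of LDHA and LDHB was 18.7% (18.4 to 19.0) in the library labelled treated and 21.7% (21.4 to 22.1) in the library labelled untreated, and every cell subset tried gave the same direction. Summed, the step had 948 CPM in the library labelled treated and 1206 CPM in the library labelled untreated, a ratio of 0.786 (0.777 to 0.795).

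The lower level of LDHA appeared in every phase and at every depth of cell. In cells called G1, S and G2/M, LDHA had 149.7, 178 and 183 CPM in the library labelled treated, against 224, 266 and 262 CPM in the library labelled untreated. In quartiles of UMIs per cell it ran between 142 CPM and 199 CPM in the library labelled treated and between 239 CPM and 280.0 CPM in the library labelled untreated. The deepest quartile of cells labelled treated (median 13166 UMIs) thus lay below the shallowest quartile of cells labelled untreated (median 5628.5 UMIs). After each cell was thinned to 4351 UMIs, 48.9% of 6012 cells labelled treated and 64.0% of 3892 cells labelled untreated held an LDHA UMI, and without thinning 67.1% of cells labelled treated and 85.9% of cells labelled untreated did. The median thinned cell held 0 LDHA UMIs in the library labelled treated and 1 in the library labelled untreated. The variance over the mean of these counts was 1.49 in the library labelled treated and 1.19 in the library labelled untreated, so LDHA was lower on average and more uneven among cells labelled treated. The richest cell labelled treated held 38 LDHA UMIs and the richest labelled untreated 16. Both libraries hold a single line with no cells that should lack LDHA, so the background of free RNA behind these shares is unknown.

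SLC16A1 and SLC16A3 encode the lactate transporters MCT1, which works in both directions, and MCT4, the exporter of strongly glycolytic cells. SLC16A1 had 3115 UMIs (51.8 CPM) in the library labelled treated and 3254 UMIs (71.4 CPM) in the library labelled untreated, a ratio of 0.725 (0.690 to 0.762). Of the 6043 genes in its class, 7.89% had a ratio as low or lower. SLC16A3 had 15 UMIs (0.249 CPM) in the library labelled treated and 97 UMIs (2.13 CPM) in the library labelled untreated, a ratio of 0.117 (0.0631 to 0.203), or 8.54-fold lower. Although genes under 10 CPM were often lower, 51 of 6368 (0.801%) had a ratio as low or lower than SLC16A3. Its UMIs did not come from a few cells, since the richest cell held 1 in the library labelled treated and 4 in the library labelled untreated. A UMI of SLC16A3 was found in 5 of 6012 thinned cells labelled treated (0.0832%) and in 38 of 3892 labelled untreated (0.976%), and the unthinned shares were 0.225% in the library labelled treated and 2.05% in the library labelled untreated. Of the UMIs of this pair, SLC16A1 made up 99.5% in the library labelled treated and 97.1% in the library labelled untreated. SLC16A7, named after its values were seen and not among the 31 genes, encodes the further lactate transporter MCT2. It had 1002 UMIs (16.7 CPM) in the library labelled treated and 603 UMIs (13.2 CPM) in the library labelled untreated, a ratio of 1.26 (1.14 to 1.39), on the other side of 1 from SLC16A1 and SLC16A3. BSG, the chaperone basigin that brings both transporters to the membrane, was also lower, with 441 CPM in the library labelled treated and 516 CPM in the library labelled untreated (ratio 0.854, interval 0.839 to 0.869).

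**Figure D3:**
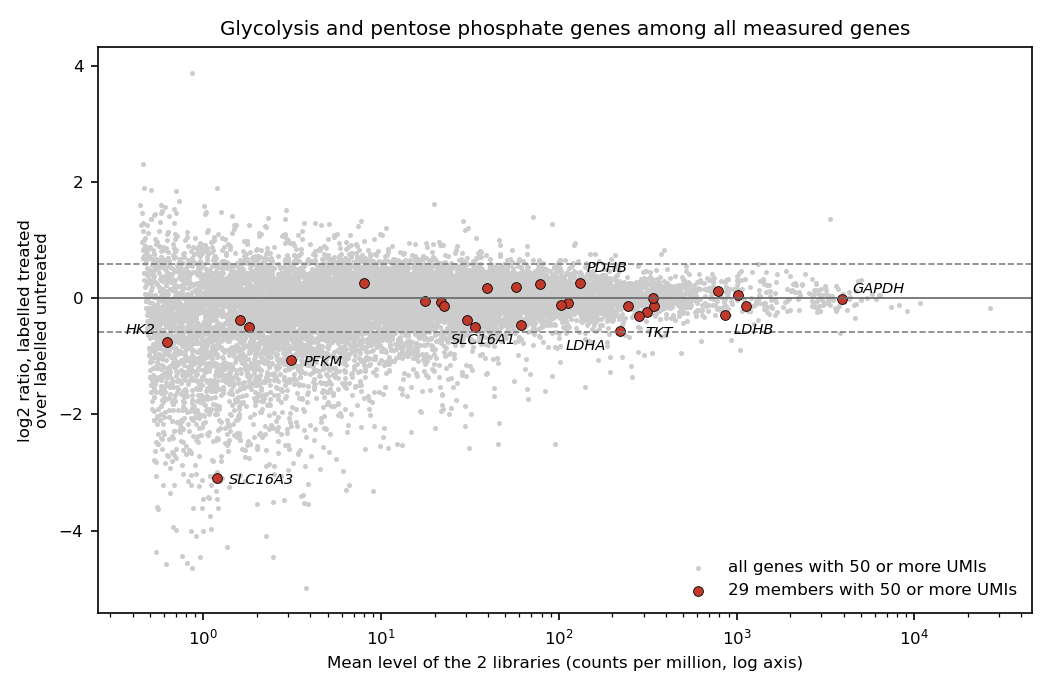
Log2 ratio, library labelled treated over library labelled untreated, against the mean level of the 2 libraries in CPM (log axis) for all 13956 genes with at least 50 UMIs (grey) and the 29 measured members (red), with dashed lines at 1.5-fold either way. SLC16A3 lies low among the genes of its level, where genes under 10 CPM spread far below 0, and LDHA lies at the lower edge of the strongly expressed genes.

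Pyruvate dehydrogenase, which sends pyruvate into the mitochondria, is a complex whose first enzyme joins an alpha and a beta subunit. Its subunit transcripts differed in direction. PDHB, the beta subunit, had 143.9 CPM in the library labelled treated and 119.9 CPM in the library labelled untreated, a ratio of 1.20 (1.16 to 1.24). PDHA1, the alpha subunit on the X chromosome, had 98.9 CPM in the library labelled treated and 107.7 CPM in the library labelled untreated, a ratio of 0.918 (0.884 to 0.954). PDHA1 thus made up 40.7% (39.9 to 41.5) of the UMIs of the pair in the library labelled treated and 47.3% (46.3 to 48.3) in the library labelled untreated. In cells called G1 the order of PDHA1 turned, but the intervals overlapped. PDHA1 had 92.7 CPM (77.4 to 110) labelled treated and 79.5 CPM (68.7 to 91.5) labelled untreated there. PDK1, the kinase that switches this enzyme off, had 523 UMIs (8.69 CPM) in the library labelled treated and 331 UMIs (7.26 CPM) in the library labelled untreated, a ratio of 1.20 (1.04 to 1.38). The PDHB transcript was found in 45.8% of thinned cells labelled treated and 38.3% of those labelled untreated, while the unthinned shares were 66.6% in the library labelled treated and 65.7% in the library labelled untreated.

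**Figure D4:**
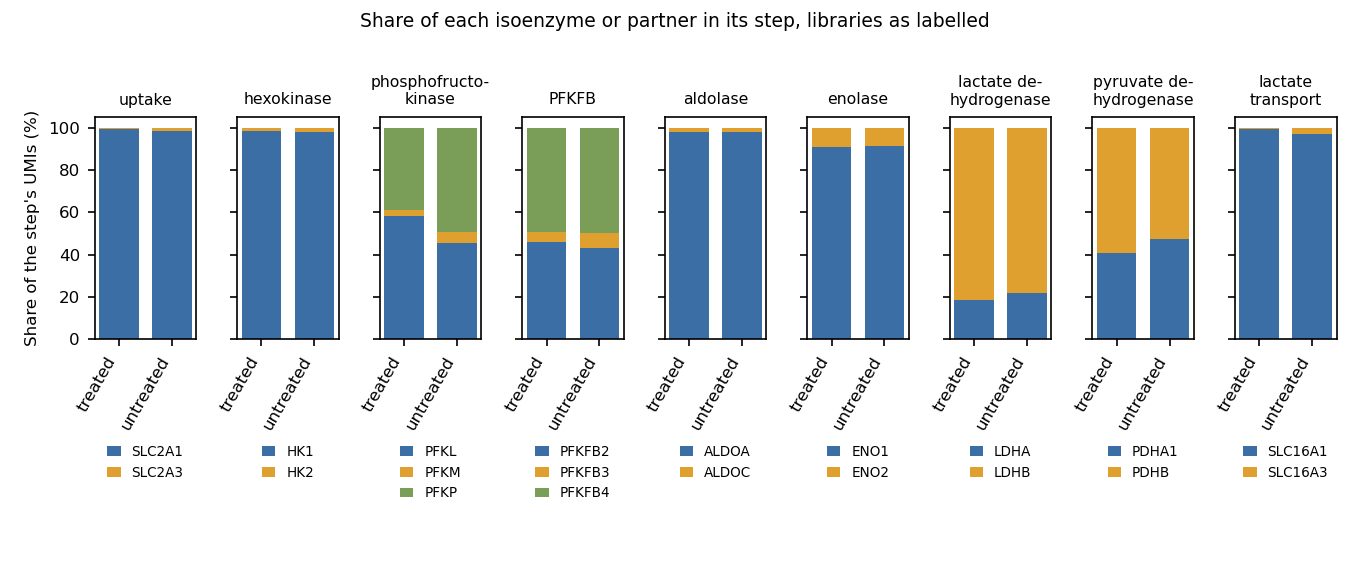
Share of each isoenzyme, subunit or transporter in the UMIs of the members of its step (%), with the library labelled treated on the left and the library labelled untreated on the right of each panel. PFKL takes 58.1% of phosphofructokinase UMIs in the library labelled treated and 45.6% in the library labelled untreated, while the hexokinase, aldolase and enolase panels differ by less than 1 percentage point.

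In the pentose phosphate pathway, the oxidative and the non-oxidative enzymes stood apart. PGD, the second dehydrogenase that yields NADPH, had 61.0 CPM in the library labelled treated and 53.4 CPM in the library labelled untreated, a ratio of 1.14 (1.08 to 1.20). TALDO1, transaldolase of the non-oxidative branch, had 338 CPM in the library labelled treated and 339.5 CPM in the library labelled untreated, and its ratio of 0.996 had an interval that holds 1 (0.975 to 1.02). TKT, the transketolase that links the branch back to glycolysis, had 251 CPM in the library labelled treated and 312 CPM in the library labelled untreated, a ratio of 0.803 (0.785 to 0.822), with 6.86% of its class as low or lower. In the 197 cells labelled treated and 278 cells labelled untreated that were called G1, the order of TKT turned, but the intervals overlapped. TKT had 304 CPM (276 to 334) labelled treated and 282 CPM (262 to 304) labelled untreated there. Outside the 31 genes, PGLS, the lactonase of the oxidative branch, had a ratio of 1.20 (1.17 to 1.24).

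The levels also differed between cell cycle phases within each library. Phases were called on thinned cells, and 47.5% of cells labelled treated and 35.0% of cells labelled untreated were called G2/M. Summed over the 31 genes, cells called G2/M had 9224 CPM in the library labelled treated and 9357 CPM in the library labelled untreated, and cells called S had 10909 CPM in the library labelled treated and 11287 CPM in the library labelled untreated. The level in G2/M over that in S was 0.846 in the library labelled treated and 0.829 in the library labelled untreated. Of the 29 members, 20 were lower in G2/M than in S in both libraries, beside 38.3% of all measured genes. Of the 14 members at 100 CPM or more, 12 were lower in both, beside 48.4% of the genes of that class. Cells called G2/M also held more UMIs, with medians of 10338 in the library labelled treated and 13474 in the library labelled untreated, while cells called S had medians of 8410 in the library labelled treated and 10900 in the library labelled untreated, and the part of depth in these phase differences was not tested.

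Members differed in this respect. HK1 was higher in G2/M than in S, 1.33-fold (1.20 to 1.48) in the library labelled treated and 1.86-fold (1.67 to 2.07) in the library labelled untreated. LDHA hardly differed between these phases, with ratios of G2/M over S of 1.03 in the library labelled treated and 0.988 in the library labelled untreated. ALDOC had ratios of 0.607 in the library labelled treated and 0.603 in the library labelled untreated, and ENO1 of 0.764 in the library labelled treated and 0.756 in the library labelled untreated. PDK1, at 0.721 in the library labelled treated and 0.475 in the library labelled untreated, was lower in G2/M in both. SLC2A1 had 1.00 in the library labelled treated and 1.44 in the library labelled untreated.

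**Figure D5:**
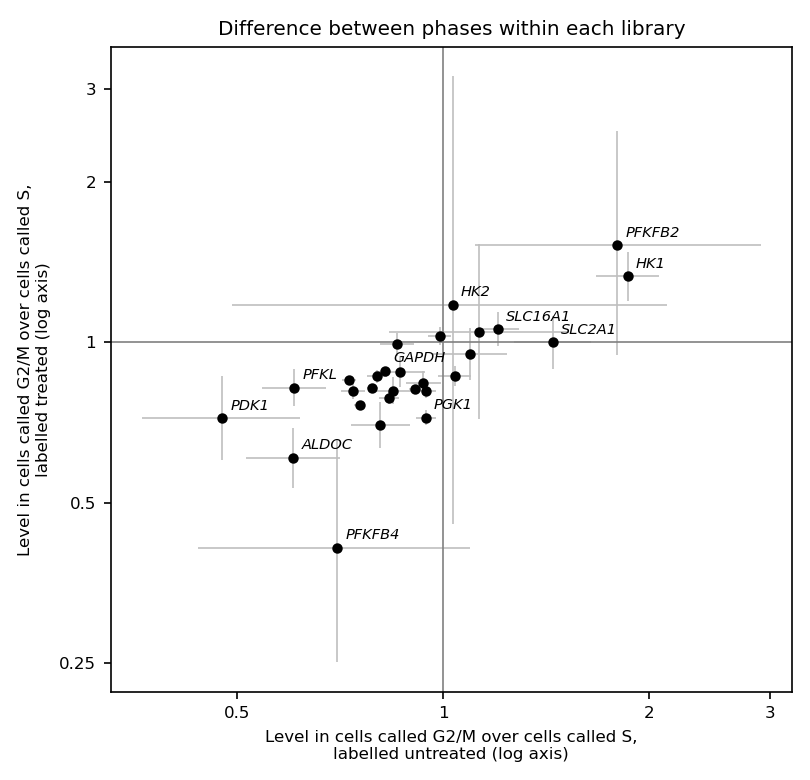
Level in cells called G2/M over the level in cells called S (log axes) for the measured members other than SLC16A3, whose counts per phase were too few to draw, with the library labelled treated on the vertical and the library labelled untreated on the horizontal axis and 95% intervals for counting error. Most points lie below 1 on both axes, while HK1 lies at 1.33 in the library labelled treated and 1.86 in the library labelled untreated.

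Among thinned cells, the summed count of the 31 genes averaged 43.0 UMIs (SD 10.7 over 6012 cells) in the library labelled treated and 45.3 UMIs (SD 11.5 over 3892 cells) in the library labelled untreated. Counting alone at those means gives an SD of 6.56 in the library labelled treated and 6.73 in the library labelled untreated. The median cell held 42 UMIs in the library labelled treated and 45 in the library labelled untreated, and the 5th to 95th percentiles ran from 27 to 61 in the library labelled treated and from 27 to 64 in the library labelled untreated. The distributions of cells overlapped over most of their range. Every thinned cell of both libraries held a GAPDH UMI, with a median of 17 in each. Across cells, the 45 pairs of the 10 members with a mean of at least 1 UMI had a median Pearson r of 0.098 in the library labelled treated and 0.096 in the library labelled untreated, which in counts this sparse is too weak to read.

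Genes of the same pathways outside the 31 gave no common direction. Of 56 such genes in the table, 33 were measured, 16 with a ratio above 1 and 17 below 1, and their median log2 ratio was -0.03. At least 1.5-fold higher were 2 of the 33, where 3.75% of all measured genes were, and 5 were at least 1.5-fold lower, where 14.9% were, so the lower count was near the background. The higher genes were H6PD at 1.64 (1.09 to 2.51), the dehydrogenase of the endoplasmic reticulum, and SLC2A6 at 1.53 (1.39 to 1.68), a hexose transporter of lysosomes. Among the lower genes was ENO3, the muscle enolase, at 0.279 (0.235 to 0.330). C12orf5, which encodes the bisphosphatase TIGAR, had a ratio of 0.744 (0.644 to 0.858).

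Hypoxia response genes outside the 31 were listed because several members are known targets of the same factors. Of 31 measured genes in that list, 13 had a ratio above 1 and 18 below 1, where 52.6% of all measured genes were below 1, with a median log2 ratio of -0.09. At least 1.5-fold lower were 5 of the 31, where 14.9% of all measured genes were, so the lower count was near the background. At least 1.5-fold higher was 1, where 3.75% of all measured genes were. HIF1A, the oxygen-regulated factor subunit, had a ratio of 1.03 (0.986 to 1.08), and VEGFA, its classical target, 0.970 (0.852 to 1.11), and both intervals hold 1. The highest were KDM3A, a histone demethylase, at 1.55 (1.32 to 1.81) and EGLN1, the main oxygen-sensing hydroxylase, at 1.34 (1.19 to 1.49). The lowest were P4HA2, a collagen prolyl hydroxylase, at 0.285 (0.197 to 0.406) and EGLN3, a hydroxylase induced by hypoxia, at 0.394 (0.322 to 0.481).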

How the data were processed

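Per the labels' protocols, 3′ Chromium libraries of 2 samples were sequenced on an Illumina instrument. Cell Ranger, Seurat and hg19 were used, per the submitters' processing notes; their versions, the annotation and the cell filters are not given in the sources used here. A table deposited by the authors holds 32742 genes and 10816 cells on a natural log scale. The deposited natural log values, back-transformed, summed to 10000 in each cell, and 100% were whole multiples of the cell's smallest value within 1e-06, which was taken as 1 UMI. Cells were assigned by the treatment word in their names, which is the only link between cells and samples. Between the libraries, 48 barcodes were shared and kept as separate cells.

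UMIs were summed per gene and library and divided by the library total (CPM); 3 UMIs are 0.0499 CPM in the library labelled treated and 0.0658 CPM in the library labelled untreated. Ratios of genes with at least 50 UMIs have 95% exact intervals (Clopper-Pearson), as have shares. These cover counting error only. Counting at the 3′ end gives transcripts without a correction for length. Cells were thinned without replacement to 4351 UMIs, which left out 667 cells labelled treated and 245 labelled untreated, and phases were called with scanpy on both libraries together. No doublet caller was run; as an alternative, the 5% of cells richest in UMIs were removed. The counting, intervals and thinning were tested on simulated data. Alternatives changed the scaling, the weight of cells, the scale, the minimum, the pseudocount, the cells and the thinning.

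All 31 members are named; of the other lists, the 2 highest and 2 lowest ratios are named, with genes chosen by name; a few that this rule selects are left out. The members and lists were chosen with earlier results of these data known. RefSeq windows were searched for ACGTG and CACGTG on both strands; 28 members matched by symbol, and SLC2A3, PFKFB2 and SLC16A1 are named only. In GENCODE 29, 14 members have pseudogenes named after them (107 in all, 62 of GAPDH), and 0 of these had a row in the table, so reads could not be divided between them. PFKFB4 and PGK1 overlap exons of another gene on the same strand. Python 3.11.15, numpy 2.4.6, scipy 1.17.1, pandas 2.3.3, scanpy 1.11.5 and matplotlib 3.10.9 were used.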

Additional observations from a re-analysis of the deposited data

How the results depend on the processing

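No paired analysis was possible because each group had 1 library, so none could be left out or paired. Scaling by the median ratio over genes moved all log2 ratios by 0.02, leaving out both mitochondrially encoded and ribosomal protein genes by less, and neither changed a count of members past 1.5-fold. The members' median log2 ratio of -0.14 was -0.037 in cells of 7000 to 12000 UMIs, -0.20 in cells called G2/M and 0.041 in cells called G1. The mean of the deposited natural log values gave -0.024, beside -0.004 over all measured genes. That value is a difference of mean log values and not a log2 ratio of levels, so it is a different measure. The count of members at least 1.5-fold lower, 3, was 0 on the deposited natural log scale, 0 with a pseudocount of 0.1 per 10000 and 0 with a minimum of 500 UMIs (24 members), since each of these damps or drops weakly expressed genes; it was 5 with no minimum (31 members) and 7 in cells called G2/M. The count at least 1.5-fold higher, 0, was 1 in cells called G2/M and 3 in cells called G1. In cells called G1, HK2 turned to 1.80 (log2), on 2 UMIs labelled treated and 1 labelled untreated. PFKP (0.06), ENO1 (0.07), TKT (0.11), BPGM (0.17), PDHA1 (0.22), SLC2A1 (0.45) and PFKFB4 (0.80, on 3 UMIs in each library) also lay above 0 there. TALDO1 did so slightly, at 299 CPM labelled treated and 295 CPM labelled untreated, and PDK1 (-0.45) turned below 0. The cause of the other moves was not tested. LDHA stayed between -0.61 and -0.47 over 13 alternatives, and SLC16A3 between -3.75 and -0.02 over the 12 that gave it a value, the weakest on the deposited natural log scale. Of 400 values of single members, 371 kept their sign. Only 197 cells labelled treated and 278 labelled untreated were called G1, so weakly expressed members could not be compared there.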

Other observations

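Beyond the lowest and highest ratios, further genes of the neighbouring lists whose level in the library labelled treated was at least 1.5-fold lower were picked after their values were seen. In the hypoxia list these were DDIT4, an inhibitor of growth signalling induced by stress, CA9, a carbonic anhydrase at the cell surface, and NDRG1, a stress-responsive gene. DDIT4 had 38.6 CPM in the library labelled treated and 89.9 CPM in the library labelled untreated, a ratio of 0.429 (0.408 to 0.452). CA9 had 5.22 CPM in the library labelled treated and 10.1 CPM in the library labelled untreated, a ratio of 0.519 (0.448 to 0.601). NDRG1 had 2.49 CPM in the library labelled treated and 4.41 CPM in the library labelled untreated, a ratio of 0.565 (0.454 to 0.702). CA9 and NDRG1 were under 10 CPM on average, where 27.3% of genes were at least 1.5-fold lower. DDIT4 lay between 10 and 100 CPM, where 5.15% were.

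In the list of other pathway genes these were PGAM2, the muscle phosphoglycerate mutase, PCK2, the mitochondrial phosphoenolpyruvate carboxykinase, and PDK3, a further kinase of pyruvate dehydrogenase. PGAM2 had a ratio of 0.567 (0.494 to 0.651), PCK2 of 0.653 (0.588 to 0.725) and PDK3 of 0.666 (0.540 to 0.820). The muscle forms PFKM, PGAM2 and ENO3 were thus all lower in the library labelled treated, at 2.03, 6.05 and 3.21 CPM against 4.24, 10.7 and 11.5 CPM in the library labelled untreated. Each of them was under 10 CPM on average, where 27.3% of genes were at least 1.5-fold lower.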
